A study of Mus musculus with 5 samples.

Results

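The 35 genes described here are interferon-stimulated genes, chosen by symbol from a fixed list. All 35 were found among the 23857 genes of the expression table, and all 35 passed the filter on low values (at least 1 TPM in at least 2 libraries) that 19292 genes passed. TPM, transcripts per 1000000, is corrected for gene length, so levels can be set side by side between genes. Bulk RNA came from YFP-positive cells of the oviduct stroma (the oviduct is the fallopian tube), from 5 female young adult mice with 1 mouse per library. The 2 control mice, numbered 2 and 3, had the genotype Pdgfra-Cre;R26Y, with no floxed Esr1 in the label. The 3 mice of the other group, numbered 1 to 3, carried the same alleles and Esr1(fl/fl), the floxed gene of estrogen receptor alpha. Both groups thus share the Cre and the reporter. Cre expression follows Pdgfra, a receptor gene of mesenchymal cells, so YFP and the loss of floxed sequence mark cells that express Pdgfra or descend from such cells. The labels give no exact age, strain or cycle stage.

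Interferons are secreted proteins that warn cells of infection. Type I and type III interferons act through receptor-bound Janus kinases on factors that include STAT2 and IRF9 and bind interferon-stimulated response elements in promoters, while interferon gamma acts at gamma-activated sites. The genes switched on sense foreign nucleic acid, block viral entry, translation and budding, and feed back on the pathway. In the female reproductive tract, the epithelium makes its own hormone-regulated type I interferon, interferon epsilon.

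Promoter sequences are shown for 5 genes, chosen for what they hold and with the results known: Isg15, Ifit1 and Bst2 show how response elements sit in promoters of this family, and Ifi202b and Ifitm6 are the pair of members that passed the test in a fit described below. Each is the stretch of 150 bases just before the annotated start, 5′ to 3′ on the gene's strand, from RefSeq on build GRCm38.p6. Capitals mark matches to the response element, searched as GAAA, any 2 bases and GAAA on either strand, with overlapping matches merged.
Isg15, chr4:156200819-156200968, minus strand: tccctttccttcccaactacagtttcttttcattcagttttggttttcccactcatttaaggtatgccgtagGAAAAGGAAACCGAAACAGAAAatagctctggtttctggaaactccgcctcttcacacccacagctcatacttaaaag
Ifit1, chr19:34640739-34640888, plus strand: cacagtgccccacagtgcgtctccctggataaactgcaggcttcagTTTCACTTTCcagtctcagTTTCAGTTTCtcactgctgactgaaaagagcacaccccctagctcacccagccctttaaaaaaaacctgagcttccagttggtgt
Bst2, chr8:71537473-71537622, minus strand: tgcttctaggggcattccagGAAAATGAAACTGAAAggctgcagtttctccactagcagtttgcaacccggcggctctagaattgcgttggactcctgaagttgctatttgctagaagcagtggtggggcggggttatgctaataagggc
Ifi202b, chr1:173982845-173982994, minus strand: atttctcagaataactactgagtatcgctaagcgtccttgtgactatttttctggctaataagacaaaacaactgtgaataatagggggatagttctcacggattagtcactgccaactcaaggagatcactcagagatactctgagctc
Ifitm6, chr7:141016893-141017042, minus strand: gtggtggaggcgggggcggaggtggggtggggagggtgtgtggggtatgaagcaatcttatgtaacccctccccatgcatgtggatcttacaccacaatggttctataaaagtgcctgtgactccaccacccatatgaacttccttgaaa

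Promoter entries were found for 26 of the 35 members. The others were Ifi204, Ifi27, Oas2, Mx1, Mx2, Usp18, Zbp1, Dhx58 and Rtp4. In windows of 300 bases (250 before and 50 after the start, any entry of a gene), the response element was present on either strand for 14 of the 26 members (53.8%), against 3.99% of all 27025 genes with an entry. The gamma-activated site, searched as TTC, any 3 bases and GAA, which reads the same on both strands, was present for 8 of 26 (30.8%), against 9.55% of all genes. Isg15 held 3 overlapping response element matches, and Ifit1, Ifit3, Bst2, Gbp3, Oas1a and Ifitm3 held 2 each. Ifi202b and Ifitm6 held 0 response element matches and 1 gamma-activated site each, TTCTCAGAA beginning 148 bases before the Ifi202b start and TTCCTTGAA beginning 10 bases before that of Ifitm6. The Ifi202b entry is less sure than the others shown, because the bases after its start were not found in a GENCODE transcript of the gene. The levels of the groups overlapped for 11 of the 14 members with a match and 7 of the 12 without, where 66.1% of all tested genes overlapped. These sets are small, and the difference between them was not tested. Gbp2, Oas3 and Stat2 held 1 match each while all their knockout-labelled libraries lay below both controls. A match is a description of letters in a window and not a bound site.

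Libraries were not equally deep. From the steps on which low TPM values fall, the reads behind 1 TPM were 66.6%, 48.4%, 82.9% and 67.3% of those in control mouse 2 for control mouse 3 and for knockout-labelled mice 1, 2 and 3. Absolute read counts are not known. Esr1, which checks the labels, stood at 83.3 and 77.6 TPM in controls, and the floxed group held 28.9, 84.98 and 169.9 TPM in mice 1, 2 and 3, so it was below the controls only in mouse 1 (limma, log2 fold change -0.10, standard error 0.64, adjusted p 0.948). A TPM per gene cannot tell a transcript that lacks the floxed exons from an intact one. Directions below therefore refer to the libraries labelled Esr1(fl/fl), called knockout-labelled. Fibroblast markers were abundant, with the sum of 10 stromal markers at 20240 to 25060 TPM in controls and 13281 to 17272 TPM in the other group. Markers of other cells were present too, and 4 globin genes were listed at 0 in every library. The sum of 10 epithelial markers was 2999 and 3290 TPM in controls, 2138 TPM in knockout-labelled mouse 1 and 12015 and 13100 TPM in mice 2 and 3. The sum of 8 leukocyte markers was 1132 and 1143 TPM in controls and 1001, 640 and 309 TPM in knockout-labelled mice 1, 2 and 3.

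The levels of control and knockout-labelled mice overlapped for 24 of the 35 members (68.6%), close to the 66.1% of all tested genes. With all 5 libraries fitted, 0 of the 35 members passed an adjusted p of 0.05 in either direction (limma, Benjamini-Hochberg adjustment over all 19292 genes), where 0.0104% of all tested genes were called higher and 0.0156% lower. At an unadjusted p under 0.05, 1 member was higher and 4 were lower, against 3.7% and 9.87% of all tested genes, which corresponds to 2.86% and 11.4% of the members. The median log2 fold change was -0.16 over the members and -0.022 over all tested genes, with 13 members above 0 and 22 below (37.1% and 62.9%, against 47.8% and 52.2% of all tested genes). Under the other scalings tried, 10 to 16 members were above 0. An absolute log2 fold change of at least 1 was reached by 2 members (5.71%), against 7.02% of all tested genes. Of the 35, 28 had an absolute log2 fold change under 0.5, and such small values were held by 71.7% of all tested genes. The 95% interval lay within a 2-fold change in both directions for 23 members (65.7%), against 55% of all tested genes, and within a 1.5-fold change for 6 (17.1%, against 15.4%), namely Ifi35, Ifit3, Ifitm3, Irf9, Rsad2 and Stat2. All knockout-labelled libraries lay below both controls for 9 members (25.7%, against 21.9% of all tested genes) and above both for 2 (5.71%, against 11.9%).

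The counts of calls were repeated without knockout-labelled mouse 1, a library already known to stand apart. It was the shallowest by the depth estimate, but mouse 3, which was kept, had the fewest genes at 1 TPM or more. Mouse 3 had 15841 such genes, mouse 1 had 17148, and the controls had 19061 and 19432. Dropping mouse 1 leaves out the only library with Esr1 below the controls. It keeps mice 2 and 3, whose epithelial sums were at 382% and 417% of the control mean. The part of these differences in the calls gained was not tested. Without mouse 1, 2 members passed the adjusted p of 0.05 as lower (limma), Ifi202b and Ifitm6, and 0 as higher, while 2.63% of all 19106 genes tested were called lower and 5.35% higher. With no adjustment, 5 members were higher and 5 lower at p under 0.05, 14.3% in each direction, against 17.7% and 11.6% of all tested genes. The median of the members was -0.054, with 17 members above 0 and 18 below (48.6% and 51.4%, against 52% and 48% of all tested genes).

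Each knockout-labelled library was also set against the controls. As log2 differences from the control mean, the median over the 35 members was -0.11, -0.055 and -0.023 in knockout-labelled mice 1, 2 and 3, and over all tested genes it was -0.15, 0.095 and -0.026. Mouse 1 held 6 members above and 19 below both controls, mouse 2 held 10 and 15, and mouse 3 held 15 and 16. Over all tested genes these shares were 20.8% above and 53.9% below both controls in mouse 1, 47.5% and 32.6% in mouse 2 and 40.9% and 44.3% in mouse 3. Summed over the members, expression came to 4935 and 4399 TPM in controls and 4660, 4202 and 4849 TPM in knockout-labelled mice 1, 2 and 3, of which Ifitm2 and Ifitm3 made up most. Control means ran from 2.62 TPM (Mx1) to 2192 TPM (Ifitm2), with 5 members at 100 TPM or more and 11 under 10 TPM.

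**Figure D1:**
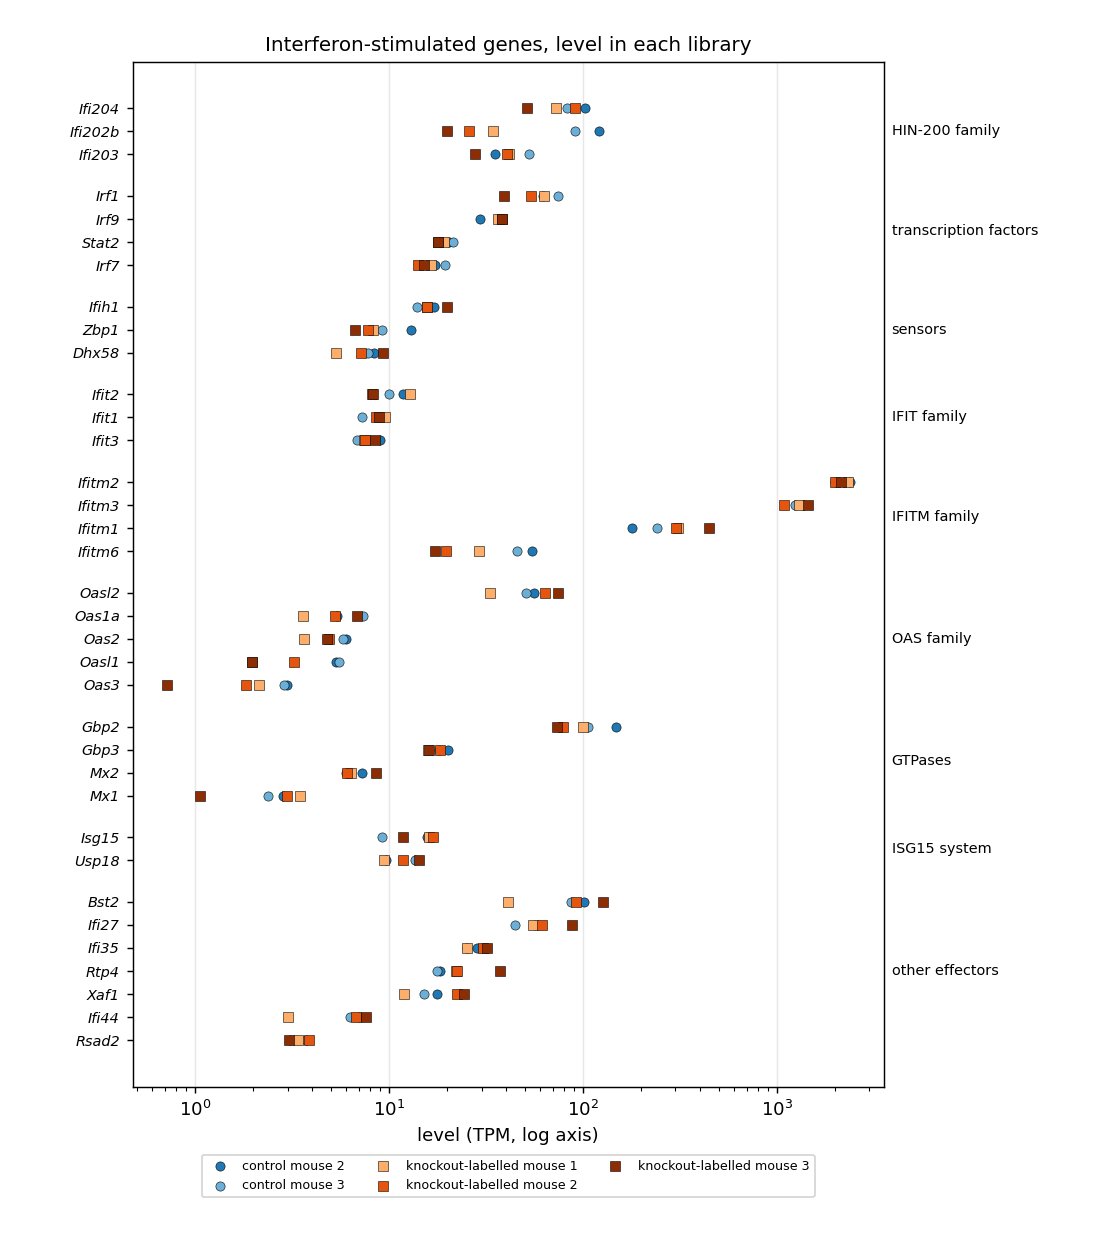
Level of each of the 35 genes (TPM, log axis), ordered by role and mean level. Circles are the 2 control libraries and squares the 3 knockout-labelled libraries, 1 point per mouse. Most genes show interleaved circles and squares, while for Ifi202b the squares, at 19.9 to 34.5 TPM, lie left of the circles, at 90.8 and 120.5 TPM.

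Ifi202b departed most from the rest of the list. It encodes p202, a HIN-200 protein that binds cytosolic DNA and is known to restrain the DNA sensor AIM2, and it lies on chromosome 1 (chr1:173962569-173982844, GRCm38.p6). Control mice 2 and 3 had 120.5 and 90.8 TPM of Ifi202b, and knockout-labelled mice 1, 2 and 3 had 34.5, 25.9 and 19.9 TPM. Every knockout-labelled library lay below both controls, and the highest of them was at 32.7% of the control mean. The control mean of 106 ± 21.0 TPM (SD, n = 2) was 3.94-fold the mean of 26.8 ± 7.32 TPM (SD, n = 3) of knockout-labelled mice. On the log2 scale the difference was -1.96 (standard error 0.26, 95% interval -2.57 to -1.35). Because the gene was singled out with these values known, its p is given as a description only: the limma adjusted p was 0.0893 with all 5 libraries and 0.0133 without knockout-labelled mouse 1, where the log2 fold change was -2.15. In the fit to all 5 libraries it had the 30th smallest p of 19292 genes and ranked 116th by absolute log2 fold change. The exact two-sided permutation p was 0.1, the smallest that 2 against 3 libraries allow. With 1 control left out the log2 fold change was -1.76 or -2.16. Ifi202b belongs to a family of similar neighbours, so reads may be split between copies and its level is uncertain to that extent.

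The other HIN-200 genes among the 35 overlapped between the groups. Ifi204, a nuclear and cytosolic DNA-binding family member and the most abundant of the 3 listed here over all 5 libraries, was at 102 and 83.0 TPM in controls and at 72.3, 91.4 and 51.7 TPM in knockout-labelled mice 1, 2 and 3. The groups overlapped, and the log2 fold change was -0.39 (limma, standard error 0.26, adjusted p 0.510). Ifi203, a nuclear family member, was at 35.01 and 52.9 TPM in controls and at 41.4, 40.8 and 27.7 TPM in the other group, again with overlap. The log2 fold change of Ifi202b lay 1.71 below that of Ifi203 and 1.57 below that of Ifi204, differences given without a test.

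Along the same stretch of chromosome 1, 11 other HIN-200 cluster genes were tested, 7 of them with a log2 fold change below 0, and their median was -0.25. With all libraries 0 of them passed in either direction (limma), with 0 higher and 1 lower at an unadjusted p under 0.05, a share near the 9.87% of all tested genes. The median of the whole cluster, Ifi202b included, was -0.32 and ran from -0.54 without control mouse 2 to -0.12 without knockout-labelled mouse 3. Ifi205, which lies next to Ifi202b in the annotation (chr1:174011998-174031755), was the one other gene of the cluster with an equally low value. It was at 357 and 177 TPM in controls and at 128, 69.0 and 29.5 TPM in knockout-labelled mice 1, 2 and 3, with a log2 fold change of -1.96 and a wider standard error of 0.59 (limma, adjusted p 0.262). Its controls differed from each other by more TPM than control mouse 3 did from any knockout-labelled library. Without knockout-labelled mouse 1, Ifi205 passed (-2.45, limma adjusted p 0.0359), and so did Ifi211 (-1.52, limma adjusted p 0.0374). Ifi207 and Ifi211 were low in some knockout-labelled mice only: Ifi207 was at 65.5 TPM in mouse 1, close to the controls at 62.4 and 62.9 TPM, and at 32.8 and 13.7 TPM in mice 2 and 3. Mndal went the other way within the controls, at 12.02 TPM in mouse 2 and 35.6 TPM in mouse 3, against 29.1 to 44.5 TPM in the other group. Aim2, the inflammasome sensor that p202 restrains, was at 13.6 and 11.5 TPM in controls. Knockout-labelled mice 1, 2 and 3 had 10.9, 6.85 and 4.01 TPM of Aim2, all below both controls (limma, adjusted p 0.394).

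**Figure D2:**
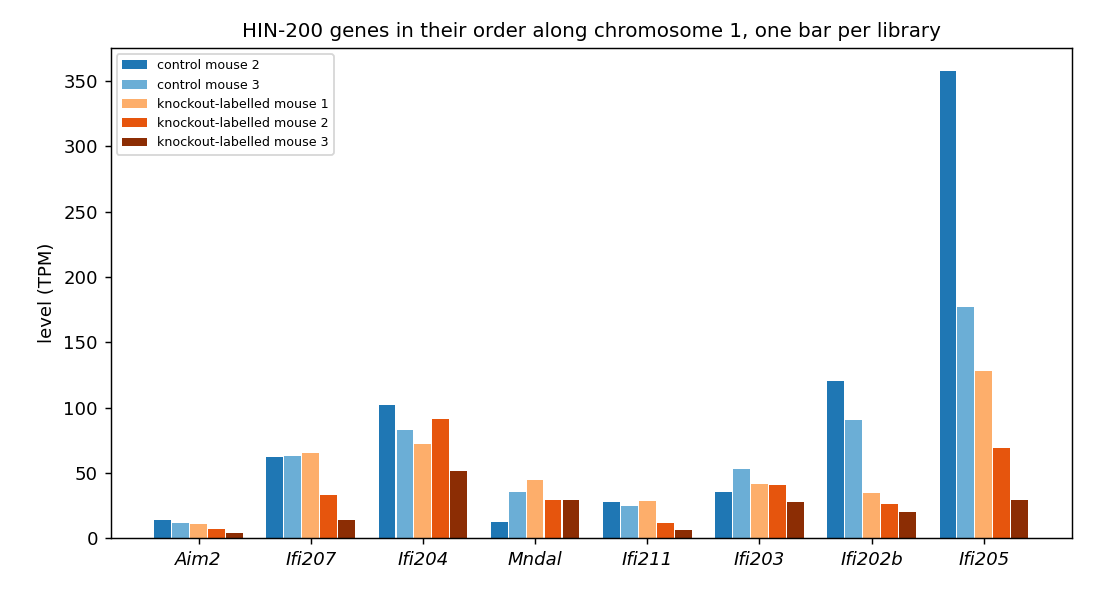
Level (TPM) of 8 HIN-200 genes with at least 10 TPM in controls, in their order along chromosome 1, with 1 bar per library. Ifi202b, its neighbour Ifi205 and the more distant Aim2 are below both controls in all 3 knockout-labelled libraries. Ifi204 and Ifi203 overlap between the groups, and Ifi207 and Ifi211 are low in knockout-labelled mice 2 and 3 but not in mouse 1.

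Leukocyte markers moved in the same direction as Ifi202b, but not to the same extent in each mouse. Relative to the control mean, the leukocyte sum was at 88.0%, 56.2% and 27.2% in knockout-labelled mice 1, 2 and 3, and the sum of 10 macrophage markers at 69.1%, 45.4% and 31.0%. The sum of 8 neutrophil and monocyte markers was at 42.1%, 48.0% and 24.1%. Ifi202b was at 32.7%, 24.5% and 18.9% in the same libraries, lower than each of these sums in each mouse. In bulk RNA, fewer cells of a type and less RNA per cell cannot be told apart, and the part of leukocytes in the Ifi202b difference was not tested.

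The IFITM genes, whose small membrane proteins block viral fusion, include the 3 most abundant members (Ifitm2, Ifitm3 and Ifitm1), and the family also held the second lowest and the highest fold change of the list. Ifitm2 was at 2378 and 2005 TPM in controls and at 2322, 1999 and 2141 TPM in knockout-labelled mice 1, 2 and 3. Ifitm3, the best known restrictor of influenza virus entry in the family, was at 1357 and 1246 TPM in controls and between 1089 and 1441 TPM in the other group. Both overlapped between the groups, with log2 fold changes of -0.022 and -0.037, whose signs flip with median-of-ratios scaling, and with 95% intervals of -0.59 to 0.54 and -0.57 to 0.49. The interval of Ifitm3 thus stayed within a 1.5-fold difference in both directions, and that of Ifitm2 just missed it.

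Ifitm6, a family member known from myeloid cells, was at 54.8 and 45.7 TPM in controls and at 29.1, 19.8 and 17.3 TPM in knockout-labelled mice 1, 2 and 3. All knockout-labelled libraries lay below both controls. Its log2 fold change of -1.18 (standard error 0.25) did not pass with all libraries (limma, adjusted p 0.187) and passed without knockout-labelled mouse 1 (-1.39, limma adjusted p 0.0140). As shares of the control mean its values were 58.0%, 39.4% and 34.4%, beside macrophage sums of 69.1%, 45.4% and 31.0%. The neutrophil and monocyte sums were 42.1%, 48.0% and 24.1%, in another order, and the leukocyte sums 88.0%, 56.2% and 27.2%. The part of myeloid cells in the Ifitm6 difference was not tested.

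Ifitm1, described after its values were seen because its groups did not overlap, was at 179 and 240 TPM in controls and at 310.1, 303 and 446 TPM in knockout-labelled mice 1, 2 and 3. It was the member with the largest positive value, a log2 fold change of 0.74 with a standard error of 0.24, which did not pass with all libraries (limma, adjusted p 0.291) or without knockout-labelled mouse 1 (0.82, limma adjusted p 0.0807). As shares of the control mean, Ifitm1 was at 148%, 145% and 213% in knockout-labelled mice 1, 2 and 3. The epithelial sum was at 68.0%, 382% and 417% in the same libraries. The part of epithelial cells in the Ifitm1 values was not tested. Within 1 family of neighbours on chromosome 7, the values thus ran from a lower Ifitm6 through level Ifitm2 and Ifitm3 to a higher Ifitm1.

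Transcription factors of the pathway differed little. Irf1, an early activator induced through gamma-activated sites, was the most abundant, at 62.2 and 74.3 TPM in controls and at 62.7, 53.8 and 39.2 TPM in knockout-labelled mice 1, 2 and 3. Its log2 fold change was -0.41 (limma, standard error 0.23, adjusted p 0.456), with mouse 1 between the controls. Irf7, which amplifies type I interferon production, averaged 18.4 ± 1.49 TPM in controls (SD, n = 2) and 15.2 ± 1.14 TPM in the other group (SD, n = 3). Stat2 and Irf9 encode subunits of a complex that binds response elements: Stat2 averaged 20.9 ± 0.81 TPM in controls and 18.4 ± 0.79 TPM in the other group, and Irf9 33.8 ± 5.96 TPM and 37.8 ± 0.97 TPM (SD, n = 2 and n = 3). Irf7 and Stat2 lay below both controls in all 3 libraries, but by less than 1.5-fold on average, and 0 of the 4 passed (limma).

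Sensor genes were read at moderate levels. Ifih1 encodes MDA5, a sensor of long double-stranded RNA. It was at 17.01 and 14.0 TPM in controls and at 15.6, 15.7 and 19.9 TPM in knockout-labelled mice 1, 2 and 3, interleaved between the groups. Zbp1, which senses Z-form nucleic acid and can trigger cell death, was at 13.0 and 9.23 TPM in controls and at 8.25, 7.82 and 6.71 TPM in the other group. All 3 values lay below both controls, yet mouse 1 was within 1 TPM of control mouse 3 (log2 fold change -0.48, standard error 0.23, limma adjusted p 0.403). Dhx58, the LGP2 regulator of RNA sensing, overlapped between the groups at 5.36 to 9.30 TPM.

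The IFIT genes, Isg15, Usp18 and Rsad2 were low, and their groups overlapped. Ifit2, of the IFIT proteins that bind foreign RNA and slow translation, was at 11.7 and 9.98 TPM in controls and at 12.8, 8.14 and 8.29 TPM in knockout-labelled mice 1, 2 and 3. Ifit1 and Ifit3 ranged from 6.83 to 9.59 TPM over all libraries with full overlap, and their log2 fold changes were 0.15 and -0.0032. Isg15, a ubiquitin-like modifier and among the most responsive genes of the pathway, was at 15.7 and 9.16 TPM in controls and at 16.02, 16.9 and 11.8 TPM in the other group. The controls differed from each other more than the group means did (log2 fold change 0.27, limma standard error 0.28, adjusted p 0.654). Usp18, which removes ISG15 from proteins and damps the receptor, averaged 11.7 ± 2.81 TPM in controls (SD, n = 2) and 11.8 ± 2.39 TPM in the other group (SD, n = 3). Rsad2, the viperin gene, stayed within 3.07 and 3.85 TPM in all 5 libraries.

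OAS enzymes sense double-stranded RNA and make a messenger molecule that activates RNase L. Oasl1, a translational repressor of Irf7, was at 5.34 and 5.50 TPM in controls and at 1.96, 3.24 and 1.98 TPM in knockout-labelled mice 1, 2 and 3. The groups did not overlap, and the log2 fold change of -0.94 (standard error 0.27) did not pass with all libraries (limma, adjusted p 0.243) or without mouse 1 (limma, adjusted p 0.118). Oas2 and Oas3 lay below both controls in all 3 libraries as well, with Oas3 at 2.97 and 2.87 TPM in controls and at 2.13, 1.82 and 0.71 TPM in the other group (limma, adjusted p 0.424). Oasl2, the most abundant of the family, was at 55.9 and 50.9 TPM in controls and at 33.2, 63.9 and 74.2 TPM in the other group, with mouse 1 below and mice 2 and 3 above the controls. Oas1a overlapped.

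Of the GTPases, Gbp2, a guanylate-binding protein that attacks pathogen vacuoles, was the most abundant, at 148 and 106 TPM in controls and at 100.4, 78.9 and 73.8 TPM in knockout-labelled mice 1, 2 and 3. All 3 lay below both controls, mouse 1 only just (log2 fold change -0.58, standard error 0.22, limma adjusted p 0.343, and 0.0653 without mouse 1). Gbp3 ranged from 15.95 to 20.1 TPM, with overlap. The dynamin-like Mx1 and Mx2 were low, at 1.06 to 3.48 TPM and 6.02 to 8.60 TPM over all libraries, and overlapped.

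Bst2, or tetherin, which holds budding virus at the cell surface, was at 101 and 86.7 TPM in controls and at 41.3, 92.1 and 127 TPM in knockout-labelled mice 1, 2 and 3. As shares of the control mean these are 43.9%, 97.97% and 135%. The same order, noticed after the values were seen, held among others for Xaf1, at 72.9%, 137% and 147%, Ifi44, at 45.1%, 101% and 114%, and Oasl2, at 62.1%, 120% and 139%. The epithelial sum followed this order also, at 68.0%, 382% and 417%. So did Esr1, at 28.9, 84.98 and 169.9 TPM, against 83.3 and 77.6 TPM in controls. The part of either in these values was not tested, and the share of all genes with this order was not counted. Rtp4, a chaperone of chemosensory receptors that also acts in antiviral defence, was at 18.4 and 17.6 TPM in controls and at 22.2, 22.3 and 37.3 TPM in the other group. It was the second member with every knockout-labelled library above both controls (log2 fold change 0.53, standard error 0.26, limma adjusted p 0.412). Ifi27 had a log2 fold change of 0.40 and Ifi35 one of 0.12, both with overlap.

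**Figure D3:**
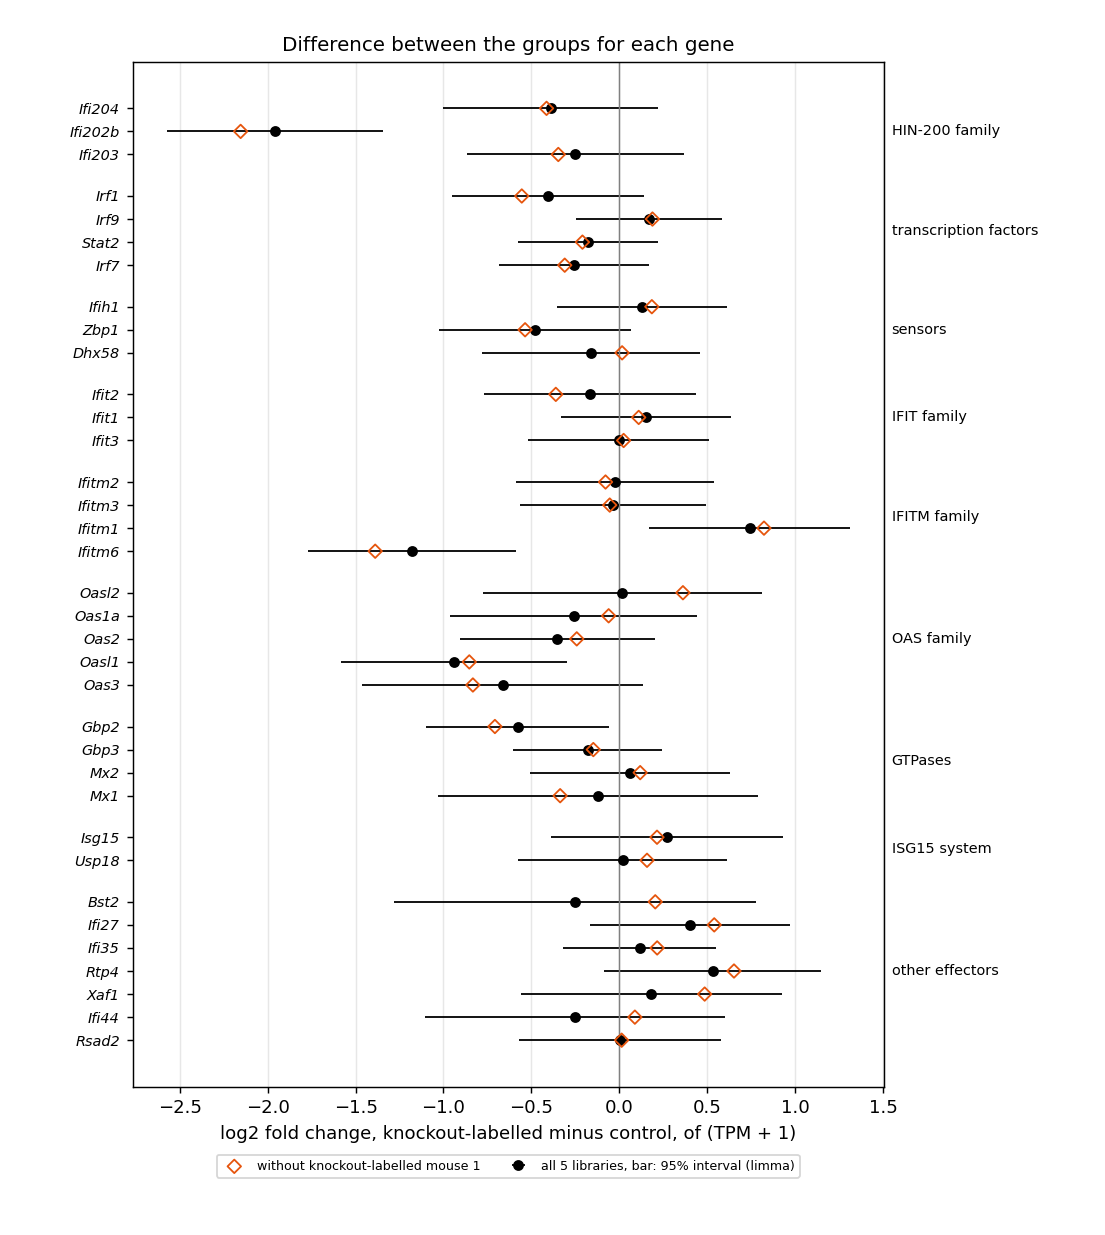
Log2 fold change of (TPM + 1), knockout-labelled minus control, for each member by role. Filled circles and bars are the fit to all 5 libraries with its 95% interval, and open diamonds the fit without knockout-labelled mouse 1. Intervals that stay off 0 belong to Ifi202b, Ifitm6, Oasl1, Gbp2 and, on the positive side, Ifitm1, and these intervals are not adjusted for the number of genes.

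Receptor chains for type I interferon and interferon gamma overlapped between the groups too. Ifnar1 and Ifnar2, the chains of the type I receptor, were at 31.4 ± 1.55 TPM and 73.9 ± 2.56 TPM in controls (SD, n = 2) and at 32.5 ± 1.07 TPM and 67.1 ± 10.1 TPM in the other group (SD, n = 3). Ifngr1 and Ifngr2, the chains of the interferon gamma receptor, had log2 fold changes of -0.037 and 0.20. Il10rb, a chain shared by the type III interferon and interleukin-10 receptors and named after its values were seen, lay above both controls in all knockout-labelled libraries by a small margin, at 64.3 and 63.9 TPM in controls and 66.1, 67.6 and 69.1 TPM in the other group (log2 fold change 0.075, limma adjusted p 0.820). Ligand genes were near the lower end of detection. Ifne, the epithelial interferon epsilon, was at 2.76 and 1.24 TPM in controls and at 1.71, 8.15 and 4.50 TPM in knockout-labelled mice 1, 2 and 3, high in the same mice as the epithelial sum (log2 fold change 0.82, standard error 0.53, limma adjusted p 0.4997). Of the 11 ligand and receptor genes, 9 were tested, 0 passed in either direction and the median log2 fold change was 0.0038.

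The other parts of the pathway gave 0 genes past the threshold in the fit to all libraries. Of 14 signalling and regulator genes, 5 were above 0 and 9 below, with a median of -0.14. The smallest p-values there belonged to Irf5 and Irf8, factors of myeloid and B cells, with log2 fold changes of -0.65 and -0.74 (limma, adjusted p 0.327 and 0.346). Irf8 passed without knockout-labelled mouse 1 (-0.999, limma adjusted p 0.0335). Of 16 nucleic acid sensing genes, 7 were above 0 and 9 below, with a median of -0.076, which was 0.018 without control mouse 2. Tlr7, the endosomal sensor of single-stranded RNA in immune cells, was at 11.1 and 13.2 TPM in controls and at 6.14, 5.65 and 4.31 TPM in knockout-labelled mice 1, 2 and 3. Its log2 fold change of -1.05 had a limma adjusted p of 0.192, and of 0.0390 without mouse 1. Cgas, the DNA sensor upstream of STING, had a log2 fold change of -0.79 (limma, adjusted p 0.273).

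A further list of 50 interferon-stimulated genes outside the 35 gave a like picture, with 17 above 0, 33 below, 0 past the threshold and a median of -0.18. All knockout-labelled libraries lay below both controls for 15 of the 50 and above both for 2, where the shares of all tested genes are 21.9% and 11.9%. The smallest p-values were those of Slfn5, a Schlafen growth regulator, at 51.1 and 31.9 TPM in controls and 23.6, 19.7 and 15.5 TPM in the other group (log2 fold change -1.03, limma adjusted p 0.214), and of Lgals3bp, at 144 and 121 TPM and 88.0, 93.1 and 98.4 TPM (log2 fold change -0.50, limma adjusted p 0.292). Slfn5 and Psmb9, an immunoproteasome subunit, passed without knockout-labelled mouse 1, with log2 fold changes of -1.16 and -0.65 (limma, adjusted p 0.0457 and 0.0392).

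**Figure D4:**
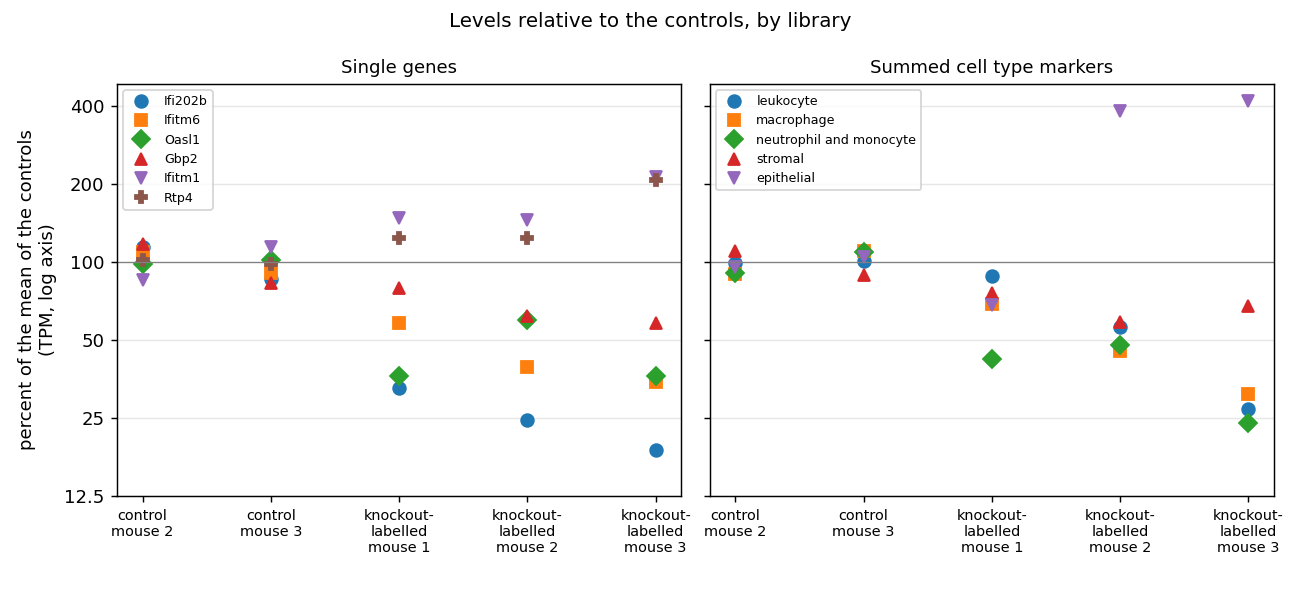
Level as a percent of the control mean (log axis) in each of the 5 libraries, for 6 members (left) and for summed cell type markers (right), 1 point per library. Ifi202b is at 32.7%, 24.5% and 18.9% in knockout-labelled mice 1, 2 and 3, where the leukocyte sum is at 88.0%, 56.2% and 27.2%, and Ifitm1 and Rtp4 lie above 100% in all 3.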

How the data were processed

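The deposited table holds 1 column of TPM per library, which the authors scaled to sum to 1000000 over the listed genes. Its name says that STAR was used, and the genome build is mm10, per the submitters' processing notes. The STAR version, gene counter and annotation are not given in the sources used here. Libraries were made from low-input total RNA with a SMARTer kit, per the labels' protocols. Analyses used log2(TPM + 1), limma 3.58.1 (eBayes with a mean-variance trend) and R 4.3.3, with genotype as the only term. Genes needed 1 TPM or more in 2 libraries. Tests were two-sided and Benjamini-Hochberg adjusted over all tested genes, with a threshold of 0.05. The log2(TPM + 1) scale understates changes of low genes. P-values set the difference between the groups against the spread between mice within them, which limma moderates with a trend over all genes. The fit and the depth estimate were tested on simulated data. Of 200 changed genes, none at the lowest levels, the fit called 53.5% at a log2 change of 1 and 99.5% at 2. All simulated libraries had the same noise, so no library stood apart. Whether the 53.5% and 99.5% hold for the 5 deposited libraries was not tested. In the fit to those libraries, 1355 of 19292 genes had an absolute log2 fold change of at least 1. Over all 19292 genes, 2 passed as higher and 3 as lower (limma). Of the 31 RefSeq promoter entries of the members, 25 held bases after the start that are also in a GENCODE transcript of the gene, a check of their orientation that the Ifi202b entry did not meet.

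The members and gene lists were chosen with earlier results of these data known. Values in every library are given for Ifi202b, for members past the threshold with or without knockout-labelled mouse 1, and in each role group for the most abundant member and the one with the largest absolute log2 fold change. Outside the list, Esr1, the interferon receptors and Ifne are named (1 further gene is not reported here), and in each pathway list the genes past the threshold or, with none, those with the 2 smallest p-values. Other genes were named after their values were seen. Alternatives were another pseudocount, other filters and scalings, library weights, no trend, the mouse number as a block and leaving out each library.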

Additional observations from a re-analysis of the deposited data

How the results depend on the processing

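With all libraries and the main settings 0 members passed, so there was no call to lose. Over the alternatives, 439 of the members' log2 fold changes kept their sign and limma call, 8 passed that had not and 39 changed sign. Sign changes by scaling stayed small: quantile normalization gave 0.043 for Ifit3, 0.13 for Ifitm2, -0.12 for Oasl2, 0.30 for Mx1 and -0.029 for Usp18, median-of-ratios scaling gave 0.040 for Ifit3, 0.025 for Ifitm2 and 0.011 for Ifitm3, and rescaling without Rpph1 and Rn45s gave -0.042 for Oasl2, -0.042 for Rsad2 and -0.037 for Usp18. With library weights 2 members passed as lower (Ifi202b, adjusted p 0.0139, and Ifitm6, adjusted p 0.0244, limma), the members' median was -0.079 and Esr1 was at 0.15. The mouse number as a block left 1 member past the threshold as higher (Ifitm1) and 3 as lower (Ifi202b, Ifitm6 and Gbp2), with a members' median of -0.054, Esr1 at 0.57 and signs changed for Ifi44 (0.089), Ifit3 (0.025), Bst2 (0.21) and Dhx58 (0.016). In that block fit mouse 1 has no partner, so the fold changes rest on mice 2 and 3. The deviations of same-numbered mice from their group means had correlations of -0.060 and -0.072. With 2 controls, whose deviations mirror each other, these values cannot show whether same-numbered mice were paired. The median of the 13 paralogs, -0.56 with the main settings, was -0.91 on log2(TPM + 0.1), 0.58 over genes with a mean of at least 5 TPM and -0.17 with quantile normalization, which also moved the ligand and receptor median to 0.067, that of sensing to -0.15 and that of signalling to -0.28. Over all genes, 2 passed as higher and 3 as lower with all libraries. Those counts were 260 and 396 with library weights, 1165 and 693 with the block, 1022 and 502 without knockout-labelled mouse 1, and 0 to 2 and 0 to 5 under the other alternatives. The cause was not tested.

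Leaving out 1 library at a time gave 0 to 2 members past the threshold as lower, a members' median of -0.16 to -0.054, a ligand and receptor median of -0.0055 to 0.079 and an Esr1 log2 fold change of -0.68 to 0.57. The list medians ran from -0.61 to -0.31 for the paralogs, -0.54 to -0.12 for the HIN-200 cluster, -0.15 to 0.018 for nucleic acid sensing, -0.23 to -0.095 for signalling and -0.20 to -0.11 for the other interferon-stimulated genes. Among members whose sign changed, the ranges were -0.54 to 0.041 for Ifi203, -0.46 to 0.089 for Ifi44, -0.0027 to 0.26 for Ifih1, -0.18 to 0.17 for Ifit3, -0.15 to 0.10 for Ifitm2, -0.13 to 0.073 for Ifitm3, -0.089 to 0.63 for Isg15, -0.0074 to 0.34 for Irf9, -0.21 to 0.36 for Oasl2, -0.34 to 0.22 for Mx1, -0.075 to 0.18 for Mx2, -0.10 to 0.11 for Rsad2, -0.21 to 0.25 for Usp18, -0.59 to 0.21 for Bst2 and -0.33 to 0.016 for Dhx58. For Ifi202b the range was -2.16 to -1.76, with limma adjusted p from 0.0133 to 0.674. A fit without 1 control assumes that the remaining control varies like the other libraries. TPM keep no read totals, so no counting error could be given, and genes near 1 TPM are the least precise.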

Other observations

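Near relatives of the members, listed as 13 paralogs, had 2 genes above 0 and 11 below, and 0 passed in either direction with all libraries (limma), with 0 higher and 3 lower at an unadjusted p under 0.05, where 3.7% and 9.87% of all tested genes lay. Oas1f was at 2.91 and 3.73 TPM in controls and at 0.63, 0.79 and 0.45 TPM in knockout-labelled mice 1, 2 and 3. Its log2 fold change was -1.41 (limma, adjusted p 0.160). Oas1d had the next smallest p, with a log2 fold change of -0.69 (limma, adjusted p 0.354). Oas1 genes are near-identical neighbours, so reads may be split among them. Gbp8, a guanylate-binding protein gene, was at 21.1 and 22.3 TPM in controls and at 14.0, 66.7 and 174 TPM in knockout-labelled mice 1, 2 and 3. As shares of the control mean these are 64.5%, 307% and 800%, beside epithelial sums of 68.0%, 382% and 417%. Gbp8 passed without knockout-labelled mouse 1 (log2 fold change 2.26, limma adjusted p 0.0334).

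A set of TRIM genes on chromosome 7, some of them antiviral restriction factors, split the mice in a way that the groups do not. It was noticed after the values were seen. Trim12a was listed at 0 in control mouse 2 and knockout-labelled mouse 1 and was at 8.90, 6.30 and 7.80 TPM in control mouse 3 and knockout-labelled mice 2 and 3. Trim5 was at 0.047 and 0.049 TPM in the first pair and at 4.73, 1.67 and 1.75 TPM in the others. Trim30d was at 0.84 and 0.43 TPM in the first pair and at 4.76, 4.53 and 2.40 TPM in the others. Trim12c and Trim30a, in the same cluster, showed no such split, at 22.3 to 30.2 TPM and 11.4 to 16.6 TPM over all libraries. These genes are similar to each other, so reads may be split among them.

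Ifi202b is known to vary in level between inbred mouse strains. Of 10 other tested genes on a list of such genes, 7 overlapped between the groups, as did 66.1% of all tested genes. Trim12a, described above, is on this list and counts as overlapping because its split ran through both groups. Overlap between the groups therefore cannot show whether single mice differ in strain background. H2-Ea was below both controls in all knockout-labelled libraries, at 80.2 and 70.9 TPM in controls and at 68.2, 40.7 and 25.1 TPM in mice 1, 2 and 3 (limma, adjusted p 0.383). The leukocyte sum fell in the same order, to 88.0%, 56.2% and 27.2% of the control mean in these mice. Its part in the H2-Ea values was not tested. Pisd-ps1 was also below both controls (limma, adjusted p 0.478), and Ide was above both (limma, adjusted p 0.424). Without knockout-labelled mouse 1, H2-Ea passed as lower (log2 fold change -1.21, limma adjusted p 0.0365) and Ide as higher (0.68, limma adjusted p 0.0303). The part of strain background in the Ifi202b difference was not tested.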
